A study of Mus musculus with 8 samples.

Results

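Genes of transforming growth factor beta (TGF-beta), activin and bone morphogenetic protein (BMP) signalling were examined in Min6, a mouse insulinoma cell line with beta cell properties. The set was a list of 50 gene symbols out of 23100 genes in the count table. It was chosen by function, with earlier results of these data known. It held ligands, receptors, secreted antagonists, Smads, Smurf ligases, nuclear corepressors and Id targets. Cells had been transfected by Lipofectamine with pRK5-Zac1, which expresses Zac1, or with pRK5-NLSeGFP, which expresses a nuclear green fluorescent protein and served as the control. Zac1, a zinc finger transcription factor, is the product of the imprinted gene Plagl1. RNA was taken 16 h later, and each group held 4 libraries, numbered 1, 2, 3 and 5, which the design text calls biological replicates. Library values below are in that order. Bulk RNA was measured, so fewer cells that express a gene and less RNA per cell cannot be told apart.

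In this pathway a dimeric ligand joins type II and type I receptor kinases, and the type I kinase phosphorylates receptor-regulated Smads, which enter the nucleus with Smad4. TGF-beta and activin act through Smads such as Smad2, BMPs through Smad1, Smad5 and Smad9. Inhibitory Smads, Smurf ubiquitin ligases, secreted ligand traps and the corepressors Ski and Skil restrain the signal, and the Id genes are classical BMP targets. In islets, activins and their receptors are known for effects on insulin secretion and beta cell identity.

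Library totals ran from 34.7 to 42.4 M counts with Zac1 and from 30.5 to 35 M in the control group (M, mega). Plagl1 stood at 5788, 4249, 4119 and 4370 CPM (counts per M counts of the scaled library total) with Zac1, against 78.4, 67.7, 79.5 and 85.4 CPM in the control group, with plasmid and endogenous transcripts counted together. All 10 beta cell markers examined passed the low-count filter, with a summed level of 60330 to 67580 CPM with Zac1 against 57880 to 74270 CPM in the control group. Markers of other endocrine cells summed to 1338 to 2129 CPM with Zac1 against 1244 to 1682 CPM in the control group, nearly all of it from the glucagon gene Gcg. Ductal markers reached 10.2 CPM with Zac1 and 10.5 CPM in the control group, and acinar, mesenchymal, endothelial and immune markers stayed below 8 CPM in every library. Of the 44 markers, 22 passed the filter and none of these was called by edgeR, against 2.15% higher and 0.0349% lower of all tested genes. The other 22 had too few counts to be called either way, and among them Prss2, Lum and Cdh5 had 0 counts throughout.

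Levels were first compared between genes per length, as CPM per kilobase of exon (RPKM). Most genes of signal reception and transmission were well expressed, and most BMP ligand genes were close to absent. Id2, which encodes an inhibitor of basic helix-loop-helix factors, was the highest of the set at 71.5 ± 3.11 RPKM with Zac1 and 71.2 ± 4.69 RPKM in the control group (SD, n = 4 each). In the control group it was followed by Id3 at 20.4 ± 1.82 RPKM and Smad5 at 18.7 ± 0.436 RPKM. Then came the type I TGF-beta receptor gene Tgfbr1 at 15.4 ± 1.19 RPKM and Smad4 at 14.7 ± 0.236 RPKM. Id3 and Smad5 were within their spread of each other, as were Tgfbr1 and Smad4. The 50 genes together summed to 1176 to 1279 CPM with Zac1, against 1172 to 1267 CPM in the control group.

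**Figure D1:**
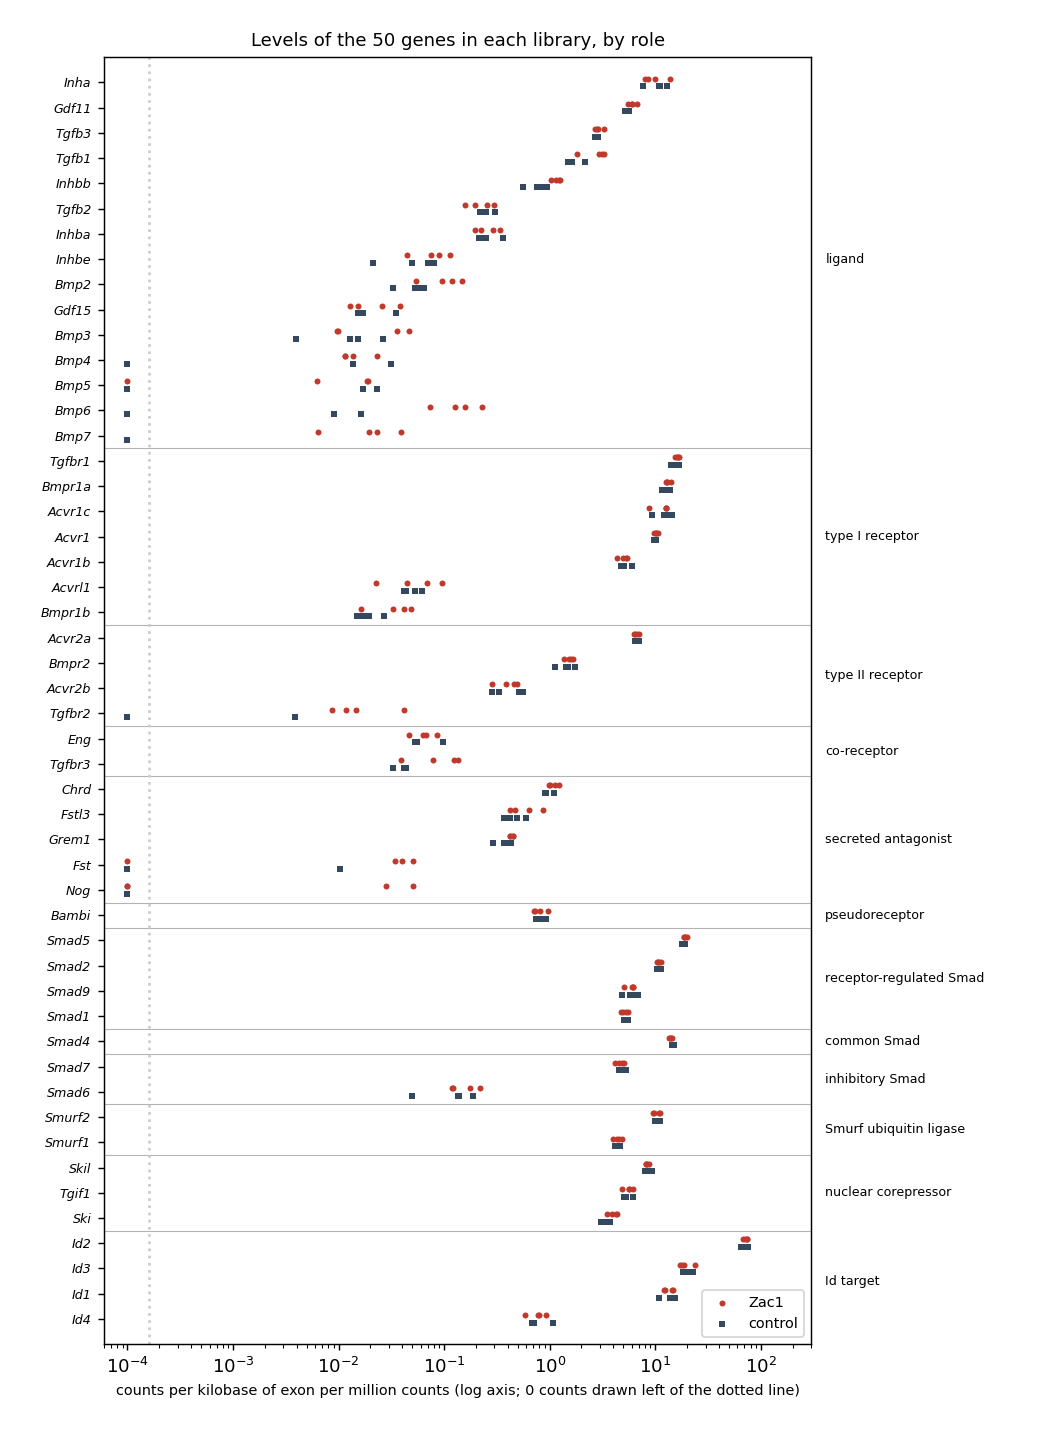
Level of each of the 50 genes in each library, by role, as CPM per kilobase of exon on a log axis; circles are the 4 Zac1 libraries, squares the 4 control libraries, and libraries with 0 counts lie left of the dotted line. Most receptor, Smad and Id genes lie to the right with both groups at like levels, while Bmp6, Bmp7 and Tgfbr2 lie to the left with the control libraries at 0 or lowest.

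The design asks which genes respond to Zac1. Of the 50 genes, 36 had enough counts to be tested, and edgeR's quasi-likelihood test called 0 of the 36 higher and 0 lower at a Benjamini-Hochberg adjusted p under 0.05. Over all 14331 tested genes, 2.15% were called higher and 0.0349% lower. At an unadjusted p under 0.05, 4 of the 36 were higher and 0 lower, against 5.65% higher and 1.93% lower of all tested genes. The 4 were the ligand genes Tgfb1, Inhbb and Gdf11 and the corepressor gene Ski. Limma-voom called 0 members, with 2.03% of all genes called higher and 0.0349% lower. DESeq2 called 3 members higher, Tgfb1, Inhbb and Bmp6, and 0 lower, where it called 2.16% of all genes higher and 0.0278% lower. With the replicate number as a block, edgeR called 3 members higher, Tgfb1 (adjusted p = 0.000173), Inhbb (adjusted p = 0.00183) and Ski. That fit also called more of all genes in both directions, and the replicate numbers did not pair every library, as given in the closing sections. The 0 calls thus hold for the fit on the group alone. The median log2 fold change (Zac1 minus control) was -0.01 over the 36 genes, 19 of them below 0, and -0.01 over all tested genes.

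**Figure D2:**
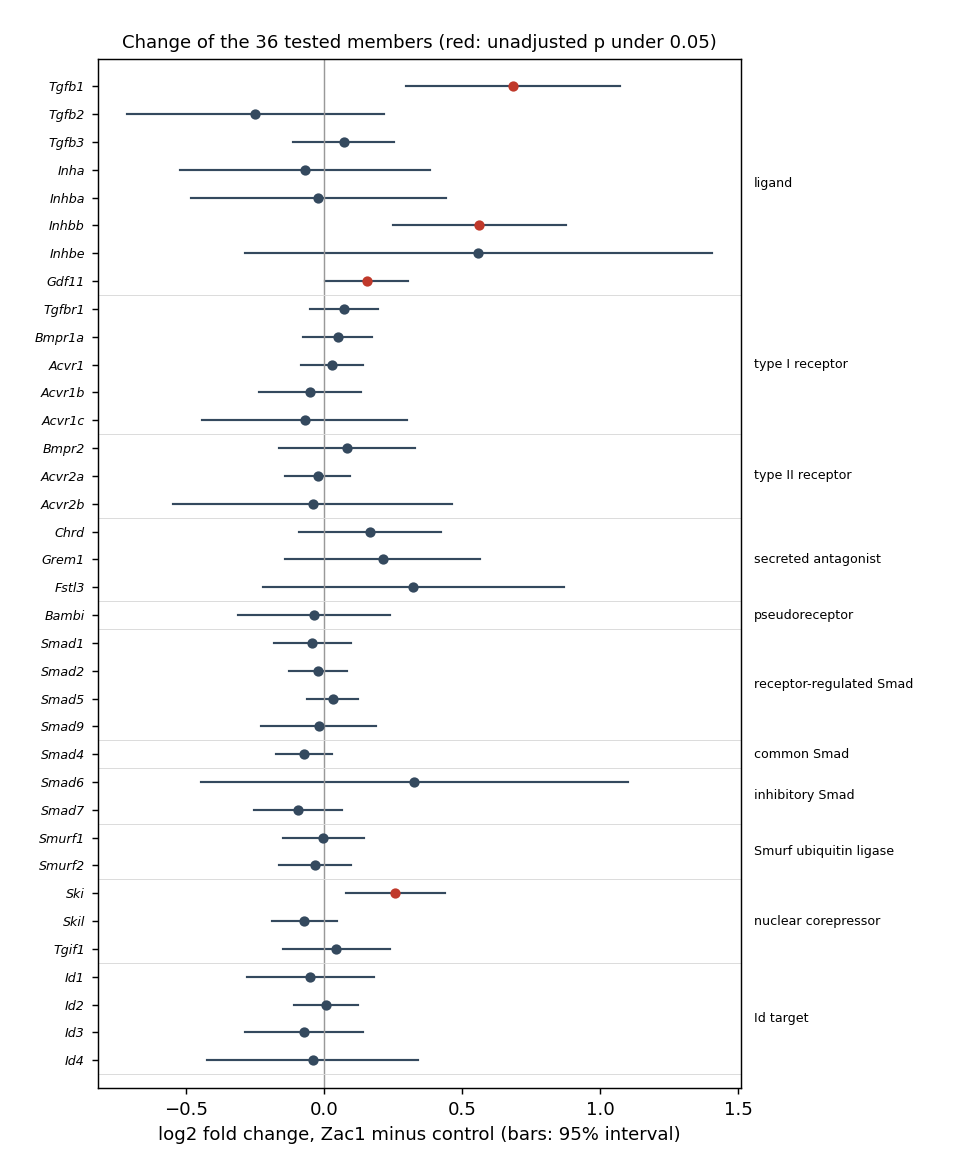
Log2 fold change (Zac1 minus control) of the 36 tested genes with its 95% interval, by role; red points had an unadjusted p under 0.05. The red points are Tgfb1, Inhbb, Gdf11 and Ski, and the intervals of all other tested members include 0.

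Among the 15 ligand genes, 8 were tested and none was called by edgeR. The promoters of 3 ligand genes, Tgfb1, Inhbb and the untested Bmp6, are shown first. These were the members called by DESeq2 and by edgeR without the low-count filter. Promoters are shown since Zac1 is a DNA-binding factor reported to recognise GC-rich elements such as GGGGCCCC. The windows are from RefSeq, build GRCm38.p6, and run from 250 bases before to 50 after a transcription start. They lie at chr7:25686752-25687051 on the plus strand, chr1:119422199-119422498 on the minus strand and chr13:38345466-38345765 on the plus strand. Capitals mark GGGGCC, which is part of the palindrome, or its reverse complement.
Tgfb1: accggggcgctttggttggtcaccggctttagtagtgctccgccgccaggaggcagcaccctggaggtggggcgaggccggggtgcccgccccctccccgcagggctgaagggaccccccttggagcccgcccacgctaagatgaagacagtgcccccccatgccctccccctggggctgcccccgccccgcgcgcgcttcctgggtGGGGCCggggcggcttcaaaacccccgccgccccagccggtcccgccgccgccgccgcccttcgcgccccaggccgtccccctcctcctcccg
Inhbb: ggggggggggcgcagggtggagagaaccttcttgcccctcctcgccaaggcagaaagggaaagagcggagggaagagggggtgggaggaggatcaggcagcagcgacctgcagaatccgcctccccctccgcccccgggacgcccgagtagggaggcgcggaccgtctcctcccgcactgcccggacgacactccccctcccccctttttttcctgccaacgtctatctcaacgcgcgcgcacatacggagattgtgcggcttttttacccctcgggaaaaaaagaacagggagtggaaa
Bmp6: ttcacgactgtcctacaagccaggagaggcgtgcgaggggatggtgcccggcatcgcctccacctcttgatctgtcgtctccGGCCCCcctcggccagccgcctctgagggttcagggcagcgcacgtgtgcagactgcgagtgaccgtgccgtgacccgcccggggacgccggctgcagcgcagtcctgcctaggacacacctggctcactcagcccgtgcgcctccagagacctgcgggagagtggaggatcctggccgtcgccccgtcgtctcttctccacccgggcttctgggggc
GGGGCC on either strand was found 1 time in the Tgfb1 window, 0 times in the Inhbb window and 1 time in the Bmp6 window, whose GC contents were 77%, 64.3% and 69.3%. Windows were found for 36 of the 50 genes, and 55.3% of their 47 windows held GGGGCC, against 25% of all 32851 windows of this length. Genes with several starts entered once per start. The windows were not matched for GC content, so the difference may be one of base composition, which was not tested. The whole GGGGCCCC, which reads the same on both strands, was found in 2.13% of the member windows, that of Inha, and in 1.08% of all windows. A match is a run of letters and not a measured site.

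Tgfb1 encodes the founding TGF-beta, a cytokine secreted in a latent form. It stood at 7.13, 6.33, 6.77 and 3.903 CPM with Zac1, against 4.65, 3.496, 3.55 and 3.27 CPM in the control group. Zac1 library 5 lay below control library 1, so the groups overlapped, while the other 3 Zac1 libraries were above every control. The log2 fold change was 0.68 ± 0.18 (SE; 95% interval 0.30 to 1.07; edgeR adjusted p = 0.0856). Without Zac1 library 5 it was 0.85 and was called (edgeR adjusted p = 0.000768), and without control library 1 it was 0.81 and was called (edgeR adjusted p = 0.0479). Over the alternatives fitted on the group alone, the adjusted p of Tgfb1 ran from 0.000768 to 0.26, with DESeq2 at 0.0121 and limma-voom at 0.212.

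Inhbb encodes the beta-B subunit, whose dimer is activin B. It stood at 5.28, 4.91, 5.21 and 4.35 CPM with Zac1, against 3.72, 3.98, 3.24 and 2.39 CPM in the control group, and in both groups the library numbered 5 was the lowest. Inhbb was the 1 gene of the 36 whose groups did not overlap, with Zac1 higher. The same held for 4.39% of all tested genes, with 1.4% having all Zac1 libraries lower. The log2 fold change was 0.56 ± 0.15 (95% interval 0.25 to 0.88; edgeR adjusted p = 0.073). Without Zac1 library 5 it was 0.63 and was called (edgeR adjusted p = 0.0318), and over the alternatives fitted on the group alone the adjusted p ran from 0.0216 to 0.204.

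Gdf11, a ligand of the activin branch, had the most CPM of the ligand genes, 24.4, 24.6, 22.2 and 27.2 with Zac1, against 22.1, 20.98, 22.5 and 22.9 in the control group. Zac1 library 3 lay within the range of the control libraries. The log2 fold change was 0.15 ± 0.07 (edgeR adjusted p = 0.637). Inha encodes the alpha subunit, which turns an activin dimer into an inhibin, and was the highest ligand gene per length, at 10.1 ± 2.66 RPKM with Zac1 and 10.6 ± 2.165 RPKM in the control group. It gave a log2 fold change of -0.07 ± 0.20. Inhba, of activin A, gave -0.02 ± 0.22, and Inhbe, of activin E, gave 0.56 ± 0.40. Inhbe was scarce, at 0.428 ± 0.152 CPM with Zac1 and 0.295 ± 0.139 CPM in the control group, and did not pass the low-count filter on its control libraries alone. Tgfb3 stood at 9.85 ± 0.8395 CPM with Zac1 and 9.39 ± 0.296 CPM in the control group (log2 0.07 ± 0.09). The scarcer Tgfb2 stood at 1.18 ± 0.316 CPM with Zac1 and 1.403 ± 0.217 CPM in the control group (log2 -0.25 ± 0.22).

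The other 7 ligand genes, Gdf15, Bmp2, Bmp3, Bmp4, Bmp5, Bmp6 and Bmp7, had too few counts for the filter. Bmp6, a BMP that regulates hepcidin and iron balance, had 34, 16, 11 and 24 counts with Zac1, against 2, 0, 0 and 1 counts in the control group. Every Zac1 library was above every control library, at 85 against 3 summed counts, a depth-scaled ratio of 23.2 with a 95% counting interval of 7.68 to 115 (exact binomial, counting error only). Bmp6 was called higher in edgeR without the low-count filter (log2 4.35, adjusted p = 0.000102). That fit called 2.11% of its genes higher and 0.0302% lower, and Tgfb1 and Inhbb were the other members it called. DESeq2 called Bmp6 as well (adjusted p = 0.000285). With Zac1 its level was 0.146 ± 0.0637 RPKM.

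In GENCODE M21, exons of Bmp6 overlap those of Txndc5 on the opposite strand by 224 bases. Txndc5, which encodes a protein disulfide isomerase of the endoplasmic reticulum, stood at 153 ± 3.69 CPM with Zac1 and 150.1 ± 5.94 CPM in the control group (log2 0.02 ± 0.05). The strand setting of the counting is not given in the sources at hand, so Bmp6 counts are uncertain, and the part of Txndc5 reads in them was not tested.

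Bmp7, a ligand of kidney and eye development, had 3, 3, 6 and 1 counts with Zac1 and 0 in each control library. Set against an assumed 3 counts for the whole control group, its depth-scaled ratio was 3.55. This leaves out the counting error of the Zac1 counts and is not a lower bound. Bmp7 was not called without the filter (edgeR adjusted p = 0.131). Bmp2 had 22, 12, 8 and 18 counts with Zac1, against 4, 7, 6 and 7 in the control group (ratio 2.05, counting interval 1.26 to 3.44; edgeR adjusted p = 0.467 without the filter). In CPM, Zac1 library 3 lay within the control range for Bmp2. Summed counts of Bmp3 were 29 with Zac1 and 14 in the control group, and those of Bmp4 were 5 and 3. Bmp5 and the stress-responsive Gdf15 each had 7 with Zac1 and 5 in the control group. For Bmp3, Bmp4, Bmp5 and Gdf15 the counting interval of the ratio included 1.

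**Figure D3:**
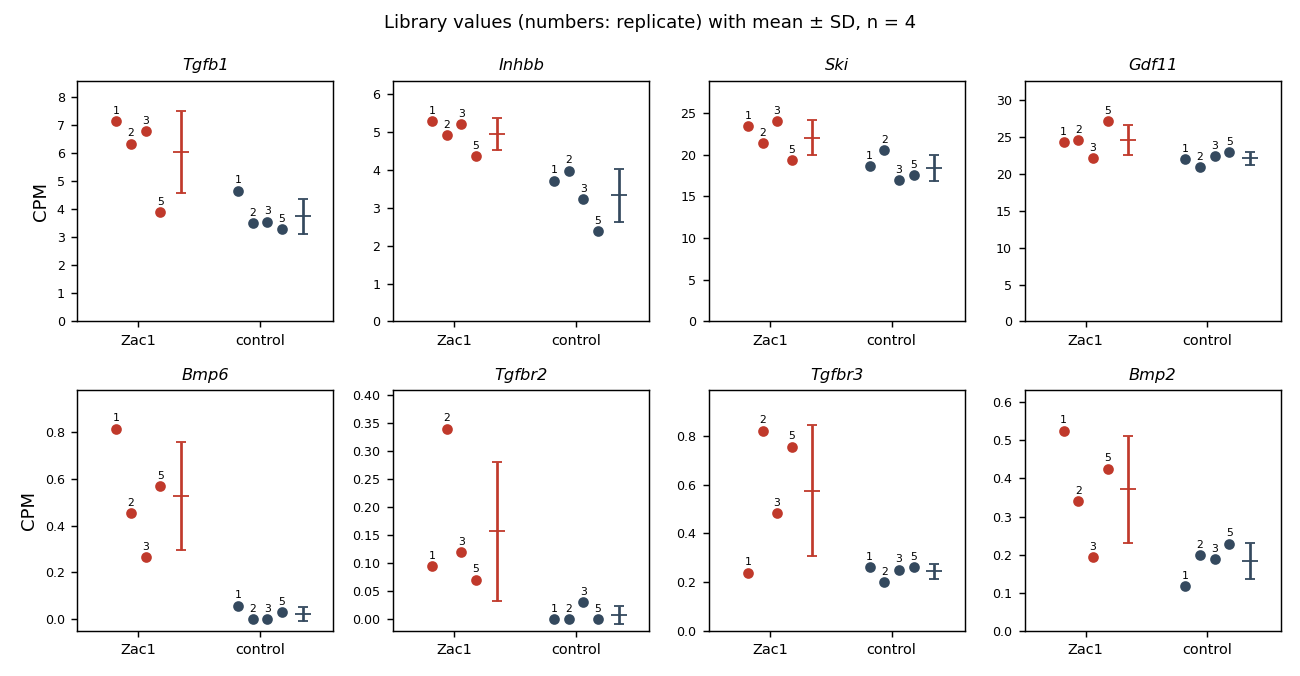
CPM in each library (points, with the replicate number) and mean ± SD (n = 4), Zac1 left of control, for the 4 tested genes with an unadjusted p under 0.05 (top) and for 4 genes removed by the low-count filter (bottom), chosen after their values were seen. Zac1 library 5 is the lowest Zac1 library for Tgfb1, Inhbb and Ski, and Bmp6 and Tgfbr2 are near 0 in every control library.

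The receptor genes were unevenly expressed. Tgfbr1 was at 16.2 ± 0.692 RPKM with Zac1, while its type II partner Tgfbr2, which binds TGF-beta itself, had 0, 0, 1 and 0 counts in the control libraries. Acvr1c, of the activin and nodal receptor ALK7, was at 11.6 ± 1.93 RPKM with Zac1 and 12.2 ± 2.07 RPKM in the control group. Acvr1b, of the activin receptor ALK4, was at 4.99 ± 0.434 RPKM with Zac1 and 5.17 ± 0.576 RPKM in the control group. Of these activin type I receptor genes, Acvr1c was the higher per length in both groups. The BMP type I receptor genes Bmpr1a and Acvr1 stood at 13.2 ± 0.733 and 10.2 ± 0.415 RPKM with Zac1, against 12.7 ± 0.886 and 9.99 ± 0.181 RPKM in the control group. Of the type II genes, Acvr2a was the highest, at 6.602 ± 0.274 RPKM with Zac1 and 6.72 ± 0.262 RPKM in the control group, above Bmpr2 at 1.54 ± 0.131 and 1.45 ± 0.261 RPKM. Acvr2b was lower still, at 0.406 ± 0.0922 RPKM with Zac1 and 0.4198 ± 0.131 RPKM in the control group.

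No tested receptor gene was called by edgeR. The 5 tested type I genes had log2 fold changes between -0.07 and 0.07 and the 3 tested type II genes between -0.04 and 0.08. Tgfbr1 stood at 97.8, 108, 104 and 105 CPM with Zac1, against 99.6, 90.96, 95.5 and 109 CPM in the control group (log2 0.07 ± 0.06, 95% interval -0.05 to 0.20). Bmpr2 stood at 17.5, 21.4, 20.5 and 19.9 CPM with Zac1, against 14.4, 19.2, 18.6 and 22.6 CPM in the control group (log2 0.08 ± 0.11, 95% interval -0.17 to 0.33). Acvr2a stood at 36.8, 39.6, 37.8 and 36 CPM with Zac1, against 37.95, 38, 36.6 and 40.2 CPM in the control group (log2 -0.02 ± 0.05, 95% interval -0.14 to 0.09). The groups overlapped for all 3 genes. Exons of Acvr2a share 446 bases with Orc4 on the opposite strand. Acvr1c varied more, at 79.7, 115, 115 and 115 CPM with Zac1 and 86.4, 110.2, 119 and 131 CPM in the control group, and in both groups the library numbered 1 was the lowest. Its log2 fold change was -0.07 ± 0.16, that of Acvr1b -0.05 ± 0.09, that of Acvr2b -0.04 ± 0.24, that of Bmpr1a 0.05 ± 0.06 and that of Acvr1 0.03 ± 0.05.

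The filter removed Tgfbr2, Bmpr1b, Acvrl1 and both co-receptor genes. Tgfbr2 had 4, 12, 5 and 3 counts with Zac1, against 0, 0, 1 and 0 in the control group, and no library overlapped. The ratio of summed counts came to 19.7 (counting interval 3.21 to 809), and it missed the threshold in edgeR without the filter (adjusted p = 0.0538) and in DESeq2 (adjusted p = 0.0886). Tgfbr3, of the co-receptor betaglycan, had 10, 29, 20 and 32 counts with Zac1, against 9, 7, 8 and 8 in the control group, and in CPM Zac1 library 1 lay within the control range. Its ratio came to 2.33 (counting interval 1.54 to 3.603; edgeR adjusted p = 0.142 without the filter). Eng, of endoglin, had 38 summed counts with Zac1 and 31 in the control group, Acvrl1, of the endothelial receptor ALK1, 36 and 25, and Bmpr1b 32 and 15. Their counting intervals included 1.

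Of the 5 secreted antagonist genes, 3 were tested and none was called by edgeR. Chordin (Chrd), a BMP trap, stood at 4.38, 3.97, 4.77 and 3.86 CPM with Zac1, against 3.599, 4.32, 3.55 and 3.67 CPM in the control group. The groups overlapped through control library 2, and the log2 fold change was 0.17 ± 0.12 (edgeR adjusted p = 0.894). Gremlin (Grem1), another BMP trap, gave 0.21 ± 0.17, and Fstl3, a follistatin-like activin trap, gave 0.32 ± 0.25. Exons of Chrd share 154 bases with Thpo and those of Fstl3 share 1157 bases with Prss57, both on the opposite strand. Follistatin (Fst), an activin trap, had 6, 4, 4 and 0 counts with Zac1, against 1, 0, 0 and 0 in the control group (ratio 11.5, counting interval 1.75 to 485; edgeR adjusted p = 0.362 without the filter). Noggin (Nog), a BMP trap, had 0, 3, 2 and 0 counts with Zac1 and 0 in each control library. Bambi, a pseudoreceptor that blocks type I receptors, stood at 4.902, 4.09, 3.66 and 3.62 CPM with Zac1, against 4.21, 4.63, 3.74 and 4.09 CPM in the control group, with overlap (log2 -0.04 ± 0.13).

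Among the members, the Smads that carry the signal gave log2 fold changes close to 0. Smad5, a BMP Smad and the highest of them, stood at 134, 143, 137 and 136 CPM with Zac1, against 136, 136, 129.5 and 136 CPM in the control group (log2 0.03 ± 0.04). The groups overlapped. Smad1 and Smad9, the other BMP Smads, gave -0.04 ± 0.07 and -0.02 ± 0.10, and Smad2, of the TGF-beta and activin branch, gave -0.02 ± 0.05. Over these 4 genes the 95% intervals lay between -0.23 and 0.19. Smad4, the shared partner, stood at 48.9, 50.7, 51.7 and 48.6 CPM with Zac1, against 52.3, 53.7, 51.6 and 52.6 CPM in the control group. Its groups met at Zac1 library 3 and control library 3, and the log2 fold change was -0.07 ± 0.05 (95% interval -0.17 to 0.03; edgeR adjusted p = 0.846).

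The inhibitory Smad genes are feedback targets of the pathway. Smad7 stood at 18.2, 22.1, 21.3 and 19.8 CPM with Zac1, against 20.1, 22, 21.6 and 23.2 CPM in the control group, with overlap (log2 -0.10 ± 0.07, 95% interval -0.26 to 0.06). Smad6 was scarce, at 0.474 ± 0.143 CPM with Zac1 and 0.377 ± 0.1701 CPM in the control group, did not pass the filter on its control libraries alone, and had a wide interval (log2 0.33 ± 0.36, 95% interval -0.45 to 1.10). The Smurf ligases mark Smads and receptors for degradation. Smurf2 stood at 51.9, 57.9, 59.1 and 51.04 CPM with Zac1, against 57.7, 59.3, 54.6 and 53.5 CPM in the control group, with overlap (log2 -0.03 ± 0.06), and Smurf1 gave -0.0031 ± 0.07.

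Ski, a corepressor that binds Smads, stood at 23.4, 21.4, 24.1 and 19.4 CPM with Zac1, against 18.7, 20.6, 16.99 and 17.6 CPM in the control group. Zac1 library 5 lay below control library 2, and the other Zac1 libraries were above every control. The log2 fold change was 0.26 ± 0.08 (95% interval 0.08 to 0.44; edgeR adjusted p = 0.229). Without Zac1 library 5 it was 0.32 and was called (edgeR adjusted p = 0.0329), and over the alternatives fitted on the group alone the adjusted p ran from 0.0329 to 0.547. Skil encodes the related SnoN and is itself a TGF-beta target. It stood at 54.7, 56.5, 54.95 and 58.5 CPM with Zac1, against 53.7, 59.01, 62.6 and 61 CPM in the control group, with overlap (log2 -0.07 ± 0.06). The homeodomain corepressor gene Tgif1 gave 0.04 ± 0.09.

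The Id genes, classical transcriptional targets of BMP receptors, were not called by edgeR. Id2 stood at 164, 181, 179 and 174 CPM with Zac1, against 158, 178, 186 and 173 CPM in the control group (log2 0.01 ± 0.05, 95% interval -0.11 to 0.12). Id3 stood at 23.8, 22.2, 30.5 and 22.8 CPM with Zac1, against 25.01, 26.98, 28.9 and 23.5 CPM in the control group (log2 -0.07 ± 0.10, 95% interval -0.29 to 0.14). Both pairs of groups overlapped. Id1 gave -0.05 ± 0.11 and the scarcer Id4 -0.04 ± 0.18, and over the 4 Id genes the 95% intervals lay between -0.42 and 0.34.

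For context, 127 other genes of the pathway were counted in 7 lists. The lists were chosen with earlier results of these data known, so their share of called genes is a description and not a test. Of 79 tested, 8 were called higher and 0 lower by edgeR, where 2.15% of all tested genes were called higher and 0.0349% lower. The median log2 fold change of the 79 was 0.04. Of the 8, 5 (Fbn2, Col1a1, Pdgfb, Gata2 and Alpl) did not pass the low-count filter on their control libraries alone. Of the 4 control libraries, 3 were above its cutoff for Col1a1, 3 for Alpl, 1 for Fbn2 and 0 for Pdgfb and for Gata2, so the last 2 genes were tested only through their high Zac1 libraries. None was called among 4 other ligand genes, where Amh gave -0.40 ± 0.28 and Gdf9 -0.49 ± 0.39. None was called among 5 other receptor and co-receptor genes, where the BMP co-receptor gene Rgmb gave -0.07 ± 0.07 and Tmeff1 0.09 ± 0.09. Among 23 cytoplasmic and nuclear regulators, also with no call, Pmepa1, a feedback inhibitor of TGF-beta signalling, gave 0.25 ± 0.13.

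Of 7 other antagonists, Crim1 and Nbl1 rose, and in neither did the groups overlap. Crim1, a transmembrane protein that binds BMPs, stood at 3.59, 2.13, 1.81 and 2.27 CPM with Zac1, against 0.3803, 0.5401, 0.471 and 0.491 CPM in the control group (log2 2.37 ± 0.25, edgeR adjusted p = 5.84e-05). Nbl1, also called DAN, a BMP trap, stood at 1.77, 1.45, 1.11 and 1.11 CPM with Zac1, against 0.673, 0.682, 0.754 and 0.589 CPM in the control group (log2 1.0 ± 0.22, edgeR adjusted p = 0.0251). The Nbl1 call was lost without Zac1 library 1 or 2 or control library 1, 2, 3 or 5 (edgeR adjusted p = 0.0541 to 0.0935). Of 12 genes of ligand storage and activation, the fibrillin gene Fbn2 rose, at 0.576 ± 0.155 CPM with Zac1 and 0.202 ± 0.093 CPM in the control group (log2 1.48 ± 0.35, edgeR adjusted p = 0.041). The Fbn2 call was lost without Zac1 library 1, 2 or 3 or control library 1, 3 or 5 (edgeR adjusted p = 0.0742 to 0.149), without both libraries numbered 5 (edgeR adjusted p = 0.0535) and in DESeq2 (adjusted p = 0.0607).

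Of 17 TGF-beta and activin response genes, Klf10, Col1a1 and Pdgfb rose. Klf10, a zinc finger repressor induced early by TGF-beta, stood at 25.6, 24.03, 24.5 and 28.01 CPM with Zac1, against 20.1, 18.4, 22.1 and 21.6 CPM in the control group (log2 0.32 ± 0.07, edgeR adjusted p = 0.0385). Its groups did not overlap. But the call was lost without Zac1 library 1, 2, 3 or 5 or control library 1 or 2 (edgeR adjusted p = 0.0587 to 0.133). It was also lost where a mean of at least 50 counts was required. Col1a1, of type I collagen, stood at 1.04 ± 0.338 CPM with Zac1 and 0.334 ± 0.0517 CPM in the control group (log2 1.63 ± 0.31, edgeR adjusted p = 0.00766). Pdgfb, a platelet-derived growth factor gene, had 70 summed counts with Zac1 and 7 in the control group (log2 2.95 ± 0.49, edgeR adjusted p = 0.00246).

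Of 11 BMP response genes, Gata2 and Alpl rose. Gata2, a zinc finger factor of blood and endothelium, stood at 0.837, 1.08, 0.892 and 1.59 CPM with Zac1, against 0.176, 0.0853, 0.0942 and 0.0327 CPM in the control group (log2 3.44 ± 0.39, edgeR adjusted p = 9.73e-05). Alpl, the tissue-nonspecific alkaline phosphatase induced in bone-forming cells, stood at 2.13, 1.82, 1.76 and 2.696 CPM with Zac1, against 0.497, 0.313, 0.283 and 0.327 CPM in the control group (log2 2.55 ± 0.24, edgeR adjusted p = 1.69e-05). For both genes every Zac1 library was above every control library. Their calls held in every alternative in which they were fitted, and neither was fitted at a mean of at least 50 counts. Neither gene passed the low-count filter on its control libraries alone, so these fits add no independent support.

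**Figure D4:**
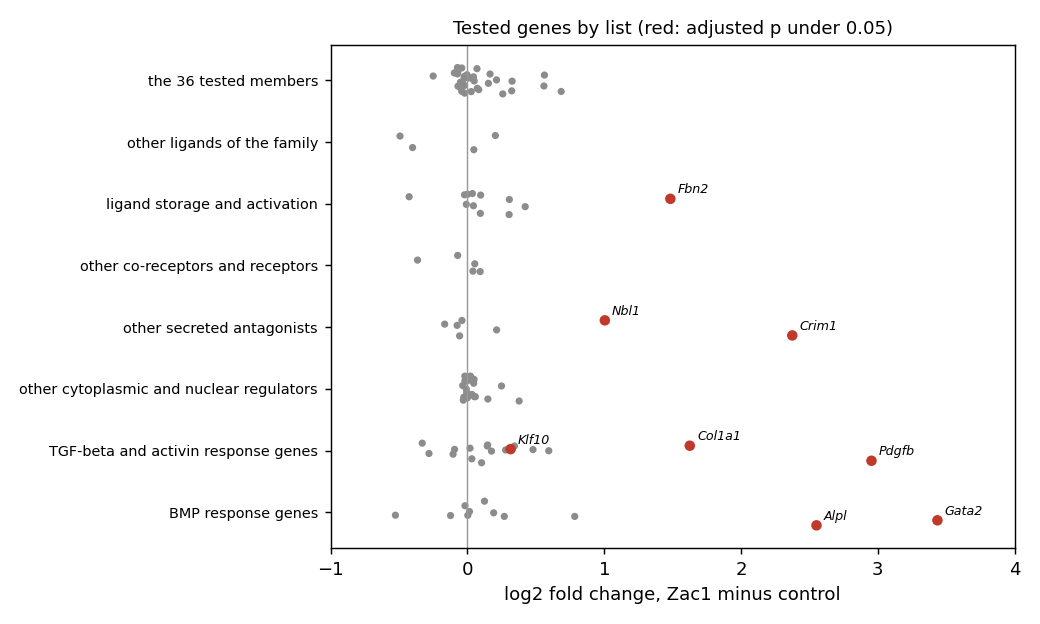
Log2 fold change (Zac1 minus control) of each tested gene among the 36 members and in the 7 lists of other pathway genes; red points had an edgeR adjusted p under 0.05 and are named, and vertical scatter within a list carries no value. The members lie between -0.25 and 0.68 with no red point, and the 8 red points fall in 4 of the 7 lists.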

How the data were processed

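Stranded mRNA libraries, 8 in all, were made from Min6 cells, per the labels' protocols. The authors deposited raw counts per gene. The submitters' processing notes name bcl2fastq 2.17, TopHat2 2.1.1 with Bowtie2 2.2.8, HTSeq 0.6.1p1 and FastQC, and the build mm9. The annotation, strand setting and filters were not given in the sources used here.

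All counts entered edgeR 4.0.16 in R 4.3.3. filterByExpr kept 14331 genes (at least 0.287 CPM, or 10 counts at the median depth, in 4 libraries), totals were scaled by TMM, and a robust quasi-likelihood fit on the group gave p-values, adjusted over all tested genes. Standard errors were derived from each log2 fold change and its F value. CPM use TMM-scaled totals; RPKM use GENCODE M21 exon lengths on GRCm38, which may differ from the authors' models. At the shallowest library, 3 counts are 0.0982 CPM. The code was tested on simulated data, with libraries drawn independently and so without a replicate effect. There the fit on the group made 14 false calls among 191 calls and recovered 79.1% of 1.5-fold changes. With the replicate block, 24 of 205 calls were false. If cultures were not separate, p-values measure only spread between these samples.

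The members and lists were chosen with earlier results of these data known. Library values are given for the member with the smallest p and that with the highest level in each role and for members called with the replicate number as a block; of the other lists, each called gene was named, otherwise the 2 with the smallest p. Some genes of the lists are not reported here, and other genes were named after their values were seen. Alternatives were the replicate block, DESeq2 1.42.0, limma-voom (limma 3.58.1), other scalings and filters, and fits without each library or both libraries numbered 5.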

Additional observations from a re-analysis of the deposited data

Results flagged for a closer look

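In 4 of 72 groups of 4 libraries, 1 library stood far from the other 3 for a tested member, where chance gives about 5% of groups. Acvr1c was 79.67 CPM in Zac1 library 1, with the other Zac1 libraries between 115 and 115.4 CPM. Chrd was 4.321 CPM in control library 2, with the other control libraries between 3.549 and 3.665 CPM. Smad5 was 129.5 CPM in control library 3, with the other control libraries between 135.5 and 136.1 CPM. Id4 was 4.156 CPM in control library 5, with the other control libraries between 2.638 and 2.757 CPM. None of these 4 genes was called under any alternative.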

How the results depend on the processing

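With the replicate number as a block, 3 members were called higher (Tgfb1, Inhbb and Ski), and over all genes 512 higher and 116 lower, against 0, 308 and 5 without it. The numbers did not pair every library. Over genes of at least 10 CPM, deviations from group means correlated at 0.607, 0.0889, 0.403 and 0.677 for replicates 1, 2, 3 and 5. Zac1 libraries 1, 3 and 5 each correlated best with the control library of their own number. Zac1 library 2 correlated best with control library 5 (0.142). DESeq2 and the fit without a low-count filter each called 3 members higher (Tgfb1, Inhbb and Bmp6), and leaving out both libraries numbered 5 called 2 (Tgfb1 and Inhbb), with 327 genes called higher over all genes. Leaving out 1 library gave 0 to 3 members called higher, 260 to 357 genes called higher and 1 to 5 lower over all genes, and 5 to 7 other pathway genes called. With a mean of at least 50 counts required, 99 genes were called higher and 0 lower, and 1 other pathway gene was called. The members called with 1 library left out include Bmp6 and Tgfbr3, which passed the filter there only through their high Zac1 libraries. No alternative called a member lower.

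Over the alternatives, 16 uncalled members with log2 fold changes near 0 changed sign, and no called gene did. Without 1 library the log2 fold change ran from -0.26 to 0.046 for Inha, -0.17 to 0.17 for Inhba, -0.091 to 0.033 for Acvr1b, -0.17 to 0.044 for Acvr1c, -0.019 to 0.19 for Bmpr2, -0.051 to 0.0078 for Acvr2a, -0.18 to 0.12 for Acvr2b, -0.14 to 0.025 for Bambi, -0.0504 to 0.0049 for Smad2, -0.098 to 0.066 for Smad9, -0.048 to 0.047 for Smurf1, -0.071 to 0.0068 for Smurf2, -0.0093 to 0.11 for Tgif1, -0.15 to 0.011 for Id1, -0.029 to 0.046 for Id2 and -0.14 to 0.15 for Id4. Without both libraries numbered 5, it was 0.016 for Inhba, 0.027 for Acvr2a, 0.013 for Bambi, 0.017 for Smad2, 0.035 for Smad9, 0.067 for Smurf1 and 0.13 for Id4. For Smurf1 it was 0.016 with library totals only, 0.0031 without the filter and 0.00302 at a mean of at least 50 counts. The 14 untested members had too few counts for the low-count filter, and for them depth limits what can be shown.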

Other observations

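Some genes of the Nodal branch, known mainly from the early embryo, were detected in both groups, while others were nearly absent. The genes named here were chosen after their values were seen. Dand5, of a Nodal and BMP antagonist, stood at 6.23 ± 0.563 CPM with Zac1 and 6.48 ± 0.928 CPM in the control group (SD, n = 4 each; log2 -0.06 ± 0.12). Cer1, of the related Cerberus, stood at 1.29 ± 0.346 CPM with Zac1 and 1.45 ± 0.3699 CPM in the control group. The Nodal inhibitor gene Lefty1 stood at 1.12 ± 0.335 and the ligand gene Gdf3 at 1.06 ± 0.0536 CPM with Zac1, against 1.09 ± 0.351 and 0.915 ± 0.123 CPM in the control group. None of these 4 genes was called by edgeR. Nodal itself had 2 summed counts with Zac1 and 2 in the control group. The co-receptor gene Tdgf1 had 5 with Zac1 and 4 in the control group, and Cfc1 had 0 and 1. Gdf1 had 0 counts in every library, and Lefty2 had 39 summed counts with Zac1 and 21 in the control group.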
